A study of Bos taurus with 20 samples.

Results

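Integrins and laminins were measured as mRNA in the cells of the bovine ovarian follicle. The 40 genes described here were found by name, from array probes whose gene name began with ITGA or ITGB, or with LAMA, LAMB, or LAMC, followed by a chain number or letter. They comprised 17 integrin alpha chains, 7 integrin beta chains, 11 laminin chains, and 5 genes that share the prefix but encode no integrin or laminin chain (ITGB1BP1, ITGB1BP2, ITGB1BP3, ITGB3BP, and ITGBL1), out of 22519 genes and transcripts on the array. The rule uses names alone and no measured value, but the gene families were picked with earlier results of these data known. The array carried no probe named ITGAX, and ITGB3 was listed under the name INTB3, which the naming rule did not take in; its values are given apart from the counts.

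An integrin is a receptor of 1 alpha and 1 beta chain that spans the plasma membrane and ties the extracellular matrix, or a partner on another cell, to the actin cytoskeleton. A laminin is a secreted trimer of 1 alpha, 1 beta, and 1 gamma chain and is, with type IV collagen, a main component of basement membranes. In the follicle a basement membrane separates the vascularised theca from the granulosa cells, which have no vessels of their own, and the oocyte lies inside a further layer of cumulus cells.

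Each of the 5 groups held 4 biological replicates, 1 array each, 20 arrays in all. Theca (TH) was scraped from the follicle wall, and granulosa cells (GC), oocytes, and the cumulus cells around them (CC) came from the punctured antral follicles, 3 to 6 mm in diameter, of ovaries of slaughtered cows. These 4 groups were immature; the fifth was CC from cumulus-oocyte complexes after 4 h of in vitro maturation (CC after IVM). No group carried a genetic change, and the age of the animals was not given in the labels used here.

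A level is the log2 of the deposited processed signal minus the 75th percentile of its array, with the spots of each gene summarised by their median, so that a level of 0 is the signal below which 75% of the spots of that array fell. Levels are compared between groups for 1 gene at a time and not between genes. A gene was counted as above background on an array when the scanner software called at least 1 of its probes well above background there; a fold against a group in which this held on none of the 4 arrays is a bound, written as "at least". Up to the comparison after IVM, statements on order and overlap cover the 4 immature groups only. The weakest signals still called above background stood between -6.84 and -4.02 on this scale. Tests are limma's moderated tests with Benjamini-Hochberg adjustment over all 22519 genes and a threshold of 0.05, differences are in log2 units with their standard error (SE), and n = 4 arrays per group throughout.

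The summed level of each marker list was highest in the libraries of its label: the log2 sum of 5 theca markers ran from 8.74 to 9.40 in TH and reached at most 6.66 elsewhere, that of 5 granulosa and cumulus markers ran from 8.46 to 10.57 in GC, CC, and CC after IVM and reached at most 8.07 elsewhere, and that of 6 oocyte markers ran from 7.95 to 8.37 in oocytes and reached at most 1.59 elsewhere. The lists were not absent from the other libraries: 4 of the 5 theca markers were above background on all 4 arrays of GC and of CC, 4 of the 5 granulosa and cumulus markers on all 4 TH arrays, and all 6 oocyte markers on all 4 CC arrays, against 3 of them in TH. Replicates correlated between 0.966 and 0.992. Between 49.3% and 68.8% of probes were well above background on the oocyte arrays, lowest on replicate 2, against 54.2% to 62.8% elsewhere. On that oocyte array genes below background stood higher than on the other oocyte arrays, and leaving it out raised the members called between TH and oocyte from 32 to 36. Because these are bulk samples, fewer cells of a type and less RNA per cell cannot be told apart. Replicates 1 and 2 of the 4 immature groups shared a slide and replicates 3 and 4 another, while all CC after IVM arrays lay on a slide of their own.

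Among TH, GC, CC, and oocyte, 34 of the 40 genes differed by the F-test, against 71.3% of all genes on the array: 15 of 17 alpha chains, 7 of 7 beta chains, 8 of 11 laminin chains, and 4 of the 5 other genes. The 6 genes that did not pass were ITGAD, ITGAM, LAMB3, LAMB4, LAMC3, and ITGB1BP3. All of these but LAMB3 had gene values at the bottom of the scale, with group means between -7.89 and -6.25 over all 5 groups. LAMB4 was above background on 5 arrays and ITGB1BP3 on 4. In each of these 2 genes, 1 probe sequence (of 4 and of 2) was above background on no array and lowered the median. With the brightest probe of each gene, both were called between oocytes and each of TH, GC, and CC. LAMB3, a chain of laminin-332, was above background on every array and had group means of -1.05 in TH, -0.60 in GC, -0.83 in CC, compared with -0.59 in oocytes. Within slide 1 the F-test called 27 members and within slide 2 it called 31.

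**Figure D1:**
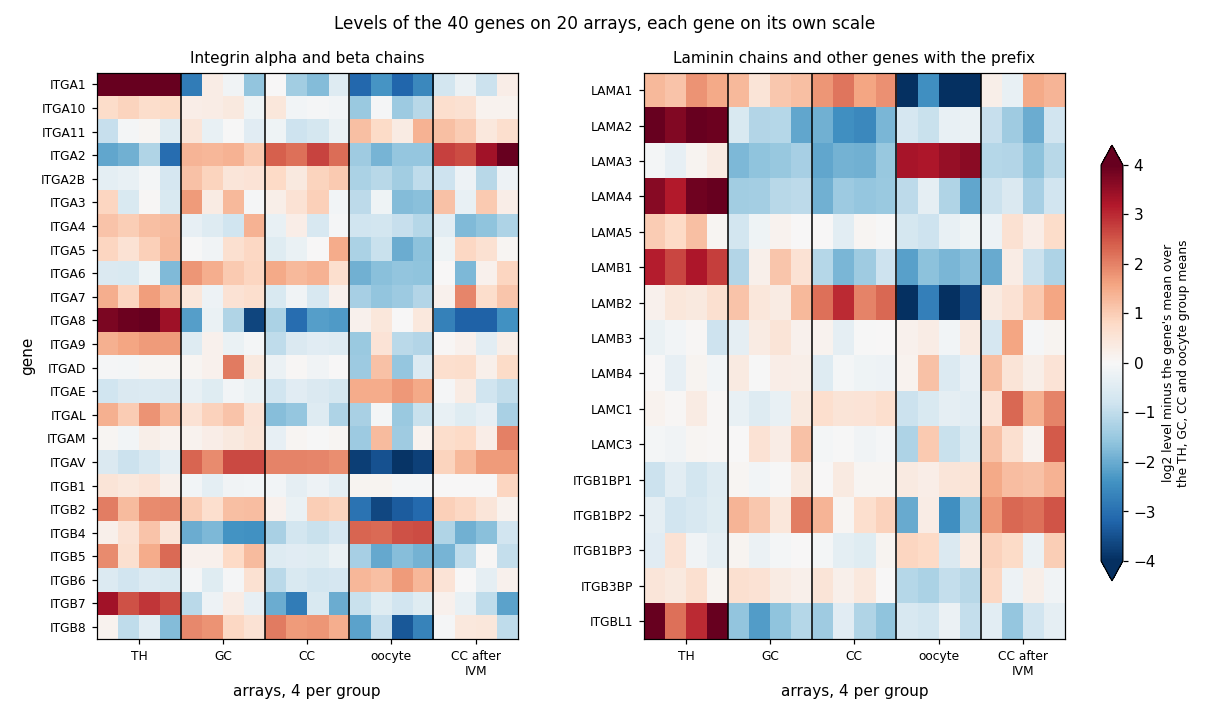
Level of each of the 40 genes (rows, by class) on each of the 20 arrays (columns, by group), as the log2 level minus the mean of that gene over its 4 group means of TH, GC, CC, and oocyte, so that colours compare arrays within a row and not rows. The TH columns stand apart in ITGA1, ITGA8, LAMA2, and LAMA4, the oocyte columns in LAMA3 and ITGB4 (higher) and in LAMA1 and ITGAV (lower).

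The laminin alpha chains, which carry the site that most laminin receptors bind, divided the 4 cell types. LAMA2 and LAMA4, chains known from muscle and vessel basement membranes, were high in TH. LAMA2 stood at -0.68, -1.20, -0.81, and -0.97 in TH, -5.51, -6.06, -6.05, and -6.98 in GC, -6.83, -7.34, -7.46, and -6.74 in CC, compared with -5.56, -5.80, -5.20, and -5.16 in oocytes. The TH arrays lay above all others, and 1 GC array and no CC array was above background. LAMA2 was at least 22.6-fold higher in TH than in CC (measured difference 6.18 ± 0.28 SE, adjusted p = 4.93e-10) and 37.6-fold higher than in GC (log2 difference 5.23 ± 0.28 SE, adjusted p = 5.79e-09). LAMA4 stood at -2.23, -2.70, -1.98, and -0.58 in TH, -7.29, -7.23, -7.00, and -6.94 in GC, -7.80, -7.34, -7.43, and -7.38 in CC, compared with -6.94, -6.25, -7.10, and -7.97 in oocytes. It was above background on 4 of 4 TH arrays, 1 of 4 oocyte arrays, and none of GC or CC, so that TH exceeded GC at least 8.93-fold (adjusted p = 1.44e-07) and CC at least 11.6-fold (adjusted p = 3.29e-08).

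LAMA3, the alpha chain of laminin-332 in epithelia, went the other way and was highest in oocytes, with -5.60, -5.87, -5.44, and -5.21 in TH, -7.34, -7.15, -7.06, and -6.87 in GC, -7.60, -7.42, -7.46, and -7.05 in CC, compared with -2.25, -2.29, -2.04, and -1.94 in oocytes. Every oocyte array lay above every array of the somatic cells, and neither GC nor CC reached background on any array. Oocytes exceeded CC at least 9.73-fold (adjusted p = 9.65e-13), GC at least 7.48-fold (adjusted p = 1.83e-12), and TH 10.6-fold (log2 difference 3.40 ± 0.18 SE, adjusted p = 1.12e-10). These folds are of the gene value, which mixes 2 probe sequences, 1 of them above background on all 4 arrays of a group. All 4 LAMA3 spots were called higher in oocytes against TH, GC, and CC, and TH minus oocyte ran from -4.13 to -2.56 over them. TH minus GC ran from -0.24 to 3.43, and 2 spots were called higher in TH than in GC, and 2 than in CC. All 3 epithelial markers on the array were above background on all 4 oocyte arrays, while TH and CC had 2 and GC had 1, and the log2 of their summed level ran from 2.73 to 2.98 in oocytes and from -2.72 to -1.24 over the somatic arrays. Their part in the oocyte levels of LAMA3, ITGB4, ITGB6, and ITGAE was not tested.

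LAMA1, the alpha chain of the first laminin described, was present in all 3 somatic cell types and below background in the oocyte. It stood at -2.51, -2.66, -2.02, and -2.30 in TH, -2.52, -3.31, -2.74, and -2.60 in GC, -2.04, -1.69, -2.25, and -1.98 in CC, compared with -9.02, -6.28, -9.03, and -8.10 in oocytes. The somatic groups overlapped in part while the oocyte arrays lay below them all, with replicate 2 the highest of the 4. CC exceeded oocytes at least 15.1-fold (adjusted p = 7.43e-09), and no pair among TH, GC, and CC passed the test.

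Of the beta chains, LAMB1 followed the theca pattern and LAMB2 the cumulus. LAMB1 stood at 6.01, 5.53, 6.10, and 5.65 in TH, 1.71, 3.07, 3.98, and 3.45 in GC, 1.74, 1.04, 1.46, and 2.03 in CC, compared with 0.69, 1.24, 1.04, and 1.17 in oocytes. All TH arrays were above all others, and GC overlapped CC. The difference was 2.77 ± 0.37 (SE, adjusted p = 4.45e-05) between TH and GC, 4.26 ± 0.37 (SE, adjusted p = 3.38e-07) between TH and CC, and 4.79 ± 0.37 (SE, adjusted p = 1.23e-08) between TH and oocytes. LAMB1 and LAMC1, the most widespread gamma chain, were above background on every array of every group.

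LAMB2 could be read only after the probes were sorted. The array named 6 probes LAMC1, but the annotation of 4 of them was that of LAMB2 on chromosome 22 (chr22:51456200-51470441, UMD 3.1) and only 2 lay in LAMC1 on chromosome 16 (chr16:65545497-65662819). They were therefore kept apart as LAMB2 (4 probes) and LAMC1 (2 probes). The last 30 bases of each 60-base probe are shown so that the 2 genes can be told apart, with the polyadenylation hexamer AATAAA in capitals where the letters held it on the given strand; 11 of the 93 distinct member probes held it (11.8%), against 7.97% of the 50909 distinct probes on the array.
LAMB2 probe 1: cgagacgggcttgcacttaatctcacgctg
LAMB2 probe 2: tcctgggtgcctatgacaccatccgccagg
LAMB2 probe 3: cagatctacaacacctgccagtgacccctg
LAMB2 probe 4: cctgtgcatgaacagtcctcagcctggcaa
LAMC1 probe 1: aaagtcacacagttttaaagagaagcaaat
LAMC1 probe 2: tatctAATAAAgtctctcttccacttaacg

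LAMB2 stood at -2.01, -1.73, -1.81, and -1.55 in TH, -1.06, -1.73, -1.85, and -0.91 in GC, 0.00, 0.79, -0.22, and 0.11 in CC, compared with -6.18, -4.93, -6.22, and -5.77 in oocytes. The CC arrays were the highest and the oocyte arrays the lowest, without overlap. CC exceeded GC 2.95-fold (log2 difference 1.56 ± 0.31 SE, adjusted p = 3.81e-03), TH 3.85-fold (log2 difference 1.95 ± 0.31 SE, adjusted p = 1.24e-04), and oocytes 61.7-fold (log2 difference 5.95 ± 0.31 SE, adjusted p = 8.84e-11). All 4 probes were called higher in CC than in oocytes: probes 3 and 4 by 6.46 and 6.72, and probes 1 and 2, above background on no oocyte array, at least 8.85-fold and 6.02-fold. LAMC1 stood at 0.03, -0.05, 0.24, and -0.06 in TH, -0.40, -0.60, -0.39, and 0.30 in GC, 0.57, 0.43, 0.45, and 0.58 in CC, compared with -0.97, -0.72, -0.47, and -0.52 in oocytes. The CC arrays were above all others, and GC overlapped with both TH and oocytes. CC exceeded oocytes 2.26-fold (log2 difference 1.18 ± 0.19 SE, adjusted p = 4.22e-05) and GC 1.72-fold (log2 difference 0.78 ± 0.19 SE, adjusted p = 1.47e-02).

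LAMA5, found in most adult basement membranes, had 1 probe in each direction, and its gene value is a mixture of them. Both probes lie in LAMA5 on chromosome 13 (chr13:55379959-55433278, UMD 3.1), and probe 2 is the one that was high in TH.
LAMA5 probe 1: gctgcgtgacttcaccaaagccaccaacat
LAMA5 probe 2: aatttaattatgaaatttcccttccgccaa

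LAMA5 probe 2 stood at 0.13, -0.15, 0.40, and -0.38 in TH, -3.78, -2.47, -2.29, and -1.46 in GC, -2.86, -3.48, -3.19, and -2.89 in CC, compared with -2.73, -2.68, -2.36, and -2.04 in oocytes. All TH arrays exceeded all arrays of the other cell types, and TH exceeded CC by 3.11 (adjusted p = 1.21e-05 over all probes). LAMA5 probe 1 stood at -4.55, -4.72, -4.44, and -5.94 in TH, -4.13, -4.34, -3.89, and -4.94 in GC, -3.56, -3.83, -3.12, and -3.62 in CC, compared with -5.10, -5.44, -4.69, and -4.75 in oocytes. Here CC lay above TH without overlap, by 1.38 (adjusted p = 4.32e-03).

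**Figure D2:**
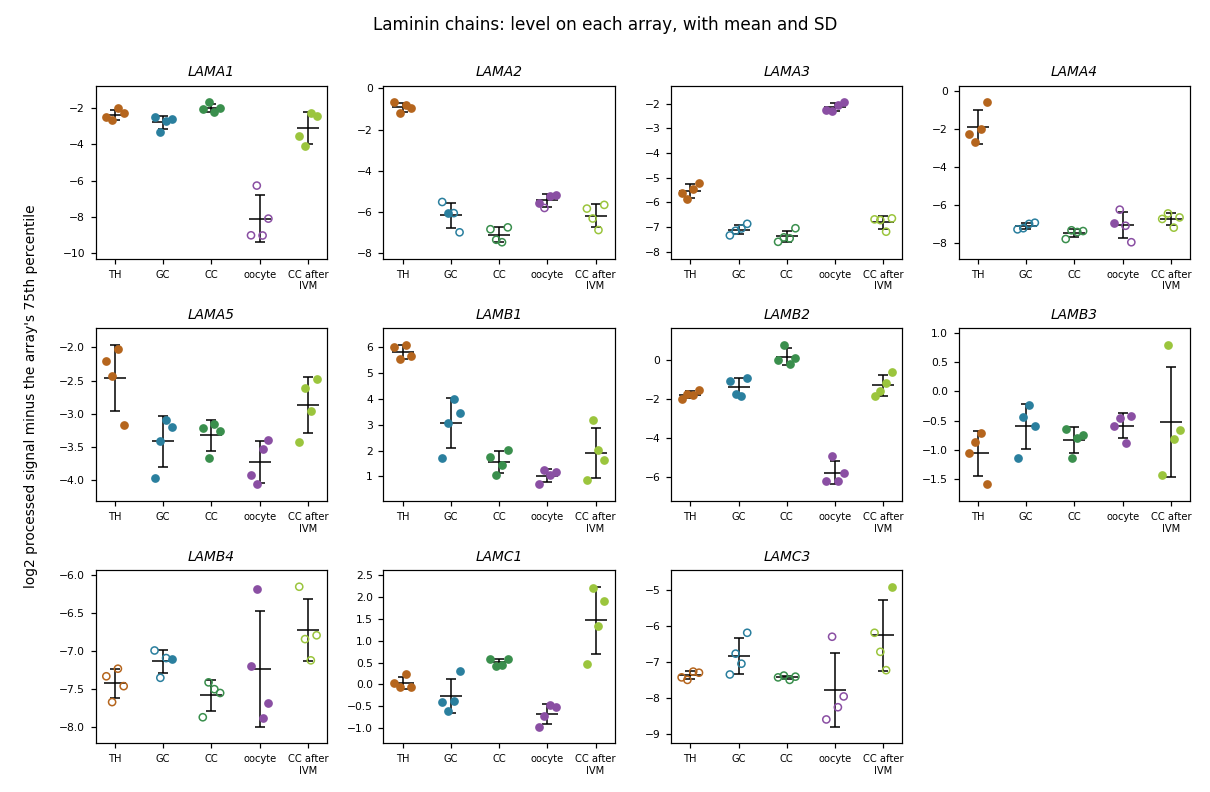
Levels of the laminin chains by group (log2 of processed signal minus the 75th percentile of the array), 1 point per array with the mean and SD of 4 arrays as bars; open points were not well above background. LAMA2 and LAMA4 stand high in TH (means -0.92 and -1.87), LAMA3 in oocytes (-2.13), and LAMB2 in CC (0.17).

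Of the integrin alpha chains that pair with beta 1 as collagen and matrix receptors, ITGA1, ITGA8, and ITGA9 were higher in TH than in GC and CC, and ITGA2 was higher in GC and CC than in TH. ITGA1, a collagen receptor known from smooth muscle and endothelium, stood at 0.97, 0.91, 1.07, and 0.45 in TH, -6.74, -3.64, -4.07, and -5.52 in GC, -3.92, -5.31, -5.68, and -4.45 in CC, compared with -7.08, -6.29, -7.11, and -6.50 in oocytes. TH did not overlap with any other group, 2 of 4 GC arrays and all oocyte arrays were below background, and all TH and CC arrays were above it. TH exceeded GC 57.4-fold (log2 difference 5.84 ± 0.55 SE, adjusted p = 1.34e-06), CC 51.7-fold (log2 difference 5.69 ± 0.55 SE, adjusted p = 1.00e-06), and oocytes at least 108-fold (adjusted p = 5.34e-09).

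ITGA2, the other main collagen receptor and the neighbour of ITGA1 on chromosome 20 (27154 bases apart in UMD 3.1), was lower in TH than in GC and CC. ITGA2 stood at -6.05, -5.89, -5.18, and -7.02 in TH, -2.60, -2.64, -2.59, and -2.94 in GC, -1.57, -1.78, -1.28, and -1.73 in CC, compared with -5.40, -5.84, -5.53, and -5.51 in oocytes. GC and CC did not overlap with TH or oocytes, which overlapped with each other and were above background on 1 and 3 arrays. CC exceeded TH 21.8-fold (log2 difference 4.44 ± 0.29 SE, adjusted p = 1.36e-08) and GC 2.15-fold (log2 difference 1.10 ± 0.29 SE, adjusted p = 2.26e-02).

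ITGA8, a receptor for nephronectin and fibronectin, was highest in TH, with 0.46, 0.60, 0.69, and 0.07 in TH, -5.51, -3.58, -4.51, and -7.00 in GC, -4.59, -6.36, -5.51, and -5.58 in CC, compared with -3.13, -2.86, -3.30, and -2.90 in oocytes. The oocyte arrays came second, above all GC and CC arrays, of which 2 and 3 were above background. TH exceeded CC 62.3-fold (log2 difference 5.96 ± 0.54 SE, adjusted p = 5.07e-07), and oocytes exceeded CC 5.51-fold (log2 difference 2.46 ± 0.54 SE, adjusted p = 8.68e-04). ITGA9, whose ligands include tenascin-C, reached background on all 4 TH arrays only; TH values were -5.37, -5.22, -5.09, and -5.09, against -7.32, -6.62, -7.08, and -6.87 in GC, -7.83, -7.37, -7.27, and -7.32 in CC, and -8.29, -6.27, -7.88, and -7.99 in oocytes. TH lay above all of these near-background values, by 2.26 ± 0.34 (SE, adjusted p = 7.70e-05) against CC by the gene value. That value mixes 2 ITGA9 probe sequences, 1 of which never rose above background. Over the 4 ITGA9 spots the difference between TH and CC ran from -0.29 to 4.24, and 2 spots were called higher in TH.

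ITGA5, the fibronectin receptor chain, stood at -2.73, -3.04, -2.65, and -2.32 in TH, -3.61, -3.73, -2.95, and -2.79 in GC, -4.09, -3.87, -3.59, and -2.11 in CC, compared with -4.86, -4.49, -5.59, and -5.23 in oocytes. The oocyte arrays lay below all others. By the gene value, which includes 2 probes above background on no oocyte array, TH exceeded oocytes 5.12-fold (log2 difference 2.36 ± 0.38 SE, adjusted p = 4.99e-05). Its 4 probes disagreed between TH and GC, where 1, above background on no GC array, was called for TH, at least 1.47-fold (adjusted p = 6.53e-03), and 2 were called higher in GC by 1.24 and 0.92 (adjusted p = 2.18e-03 and 8.07e-03). All 4 probes were called higher in TH than in oocytes, 2 by 1.33 and 1.47 and the other 2, above background on no oocyte array, at least 2.50-fold and 2.69-fold.

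The laminin-binding alpha chains ITGA3, ITGA6, and ITGA7 each had a pattern of their own. ITGA6 stood at -2.52, -2.55, -2.11, and -3.70 in TH, -0.16, -0.49, -0.87, and -1.08 in GC, -0.40, -0.64, -0.55, and -1.27 in CC, compared with -3.84, -3.60, -3.52, and -3.55 in oocytes. GC and CC overlapped with each other and lay above TH and oocytes; GC exceeded TH 4.2-fold (log2 difference 2.07 ± 0.31 SE, adjusted p = 1.05e-04) and oocytes 7.87-fold (log2 difference 2.98 ± 0.31 SE, adjusted p = 3.41e-07). ITGA7, known from muscle, stood at -1.02, -1.62, -0.82, and -1.19 in TH, -2.02, -2.68, -1.91, and -1.80 in GC, -3.08, -2.61, -3.13, and -2.31 in CC, compared with -3.81, -4.04, -3.92, and -3.66 in oocytes. TH did not overlap with any other group and exceeded oocytes 6.49-fold (log2 difference 2.70 ± 0.24 SE, adjusted p = 5.94e-08).

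The gene value of ITGA3 hid its pattern, because 4 of its 6 probes were at or near background and only 2, which overlap each other, were bright. The bright probes were made for the transcript at chr19:37198628-37208180 (UMD 3.1), and probe 2, of the transcript at chr19:37215047-37231287, is shown beside them.
ITGA3 probe 2: gtgcgatttatatcttcatgaaccaggcag
ITGA3 probe 3: cagtaaacagccccctgtttgtacacactg
ITGA3 probe 4: cagcaaccagtaaacagccccctgtttgta

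ITGA3 probe 3 stood at 1.08, 0.73, 0.87, and 0.43 in TH, 0.96, 0.62, 1.19, and 0.83 in GC, 2.31, 2.46, 2.61, and 2.56 in CC, compared with -0.61, -0.20, -0.35, and -0.17 in oocytes. The CC arrays lay above all others and the oocyte arrays below. CC exceeded TH 3.27-fold (adjusted p = 2.86e-06), GC 3.00-fold (adjusted p = 6.98e-05), and oocytes 7.05-fold (adjusted p = 1.65e-09, over all probes), and probe 4 gave 3.19, 2.92, and 6.99-fold. The median over all 6 probes lay between -7.74 and -4.30 on the 16 arrays and did not pass between TH, GC, and CC.

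ITGAV, the chain that with several beta chains binds vitronectin and other RGD ligands, separated all cell types but GC and CC. It stood at -3.39, -3.67, -3.47, and -3.17 in TH, -0.48, -0.92, -0.17, and -0.19 in GC, -0.83, -0.82, -0.86, and -0.95 in CC, compared with -6.57, -6.29, -6.75, and -6.56 in oocytes. GC exceeded TH 7.92-fold (log2 difference 2.99 ± 0.18 SE, adjusted p = 1.63e-08) and oocytes 68.5-fold (log2 difference 6.10 ± 0.18 SE, adjusted p = 2.77e-13), with no overlap and 3 oocyte arrays above background. ITGB3, a partner of ITGAV and ITGA2B, was highest in CC among these 4 groups: listed as INTB3, it stood at -5.96, -5.52, -4.96, and -4.85 in TH, -5.75, -5.20, -6.25, and -6.24 in GC, -3.70, -3.97, -3.50, and -3.96 in CC, compared with -7.06, -6.25, -6.61, and -7.61 in oocytes. CC arrays lay above all others and exceeded GC, above background on 2 arrays, by 2.08 ± 0.32 (SE, adjusted p = 7.39e-04). ITGA2B, known as a platelet chain, was above background on every array, with means of -1.95 in TH, -0.82 in GC, -0.81 in CC, compared with -2.79 in oocytes; neither of the 2 platelet markers on the array was above background on all 4 arrays of any group.

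Of the chains known from leukocytes, ITGAL, ITGB2, ITGB7, and ITGA4 were higher in TH than in CC. ITGAL, a chain of T cells and other leukocytes, stood at -3.90, -4.32, -3.53, and -3.98 in TH, -4.76, -4.39, -4.19, and -4.77 in GC, -7.03, -6.86, -5.84, and -6.55 in CC, compared with -6.62, -5.40, -6.82, and -6.20 in oocytes. TH and GC lay above CC and oocytes without overlap, and 2 CC arrays were above background. By the gene value TH exceeded CC 6.21-fold (log2 difference 2.64 ± 0.31 SE, adjusted p = 8.34e-06). Of the 4 probes, 2 were above background on no array, so the gene value mixes them with the other 2. Between TH and CC the ITGAL probes differed by -0.06 to 5.14, and 2 were called. ITGB2, its beta partner, stood at 2.02, 1.23, 1.86, and 1.88 in TH, 0.99, 0.64, 1.18, and 1.22 in GC, 0.15, -0.28, 0.95, and 0.87 in CC, compared with -2.97, -3.66, -3.37, and -3.15 in oocytes. The oocyte arrays were far below the somatic ones, and TH exceeded CC by 1.33 ± 0.28 (SE, adjusted p = 1.46e-03), and oocytes 32.8-fold (log2 difference 5.03 ± 0.28 SE, adjusted p = 1.87e-10). No GC array reached the lowest TH array; that pair did not pass the test (adjusted p = 6.12e-02) but did with the replicate number, which pairs TH with GC, as a block (adjusted p = 1.26e-02). ITGB7, which pairs with ITGA4 or ITGAE, stood at -0.10, -0.92, -0.60, and -0.84 in TH, -4.54, -3.65, -3.14, and -3.79 in GC, -5.45, -6.25, -4.06, and -5.44 in CC, compared with -4.34, -3.93, -4.23, and -3.94 in oocytes. TH lay above all other arrays, 25.7-fold above CC (log2 difference 4.68 ± 0.38 SE, adjusted p = 1.66e-07). ITGA4 was also higher in TH than in CC, by 1.33 ± 0.36 (SE, adjusted p = 1.02e-02), while ITGAM and ITGAD were above background on at most 1 array of any group.

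Markers of leukocytes, endothelium, and smooth muscle were counted beside these genes. All 7 leukocyte markers were above background on all 4 TH arrays, against 5 in GC, 4 in CC, while oocytes had 2, and the log2 of their summed level ran from 2.13 to 2.82 in TH, from -1.31 to 0.96 in GC, from -1.79 to -0.07 in CC, and from 3.61 to 3.89 in oocytes. Of 6 endothelial markers, 5 were above background on all TH arrays, with 3 in GC, 2 in CC, while oocytes had 3 (summed level 2.15 to 3.19, -1.46 to 0.17, -2.70 to -2.10, and 1.55 to 2.17). Of 6 smooth muscle and pericyte markers, 5 were so in TH, with 4 each in GC and CC, while oocytes had 3 (7.56 to 7.74, 2.92 to 4.48, 0.94 to 1.78, and 3.13 to 3.77). In these 3 lists, the leukocyte marker PTPRC and the endothelial marker CDH5 were above background on no array of GC, CC, or oocytes. The same held for CD3E, PECAM1, and TIE1 in CC, for NOTCH3 in GC and oocytes, and for RGS5 in CC and oocytes. The part of these cell types in the TH levels of ITGAL, ITGB2, ITGB7, ITGA4, ITGA1, ITGA7, ITGA8, LAMA2, and LAMA4 was not tested.

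ITGAE, the partner of ITGB7 that binds E-cadherin, was above background on every array and higher in oocytes than in any somatic group: means were 0.89 in TH, 1.23 in GC, 0.88 in CC, compared with 3.07 in oocytes, and oocytes exceeded CC 4.56-fold (log2 difference 2.19 ± 0.14 SE, adjusted p = 1.21e-09). ITGA10 and ITGA11, further collagen receptors, had gene values near background over these 4 groups. Their group means lay between -7.24 and -5.44 and between -7.09 and -5.68. For ITGA10 the gene value mixes 2 probes, 1 above background on all 4 arrays of a group and 1 on no array.

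Of the remaining beta chains, ITGB1, the common partner of most alpha chains, was bright in all cell types and differed little. ITGB1 stood at 3.16, 3.07, 3.20, and 2.84 in TH, 2.53, 2.26, 2.50, and 2.55 in GC, 2.54, 2.29, 2.44, and 2.27 in CC, compared with 2.76, 2.77, 2.60, and 2.61 in oocytes. The TH arrays were above all others, by 0.61 ± 0.14 (SE, adjusted p = 3.38e-03) against GC and 0.68 ± 0.14 (SE, adjusted p = 1.02e-03) against CC. The difference to oocytes, 0.38 ± 0.14 (SE, adjusted p = 2.21e-02), was smaller than the 0.42 by which the median of all genes was shifted between TH and oocytes, and its sign changed under another scaling of the arrays.

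ITGB5, a partner of ITGAV, stood at 4.00, 2.73, 3.57, and 4.37 in TH, 2.28, 2.27, 2.90, and 3.36 in GC, 1.59, 1.64, 1.62, and 1.82 in CC, compared with 0.77, 0.04, 0.39, and 0.22 in oocytes. Group means ran in the order TH, GC, CC, and oocyte. TH and GC overlapped, GC against CC did not pass the test, and TH exceeded oocytes 9.93-fold (log2 difference 3.31 ± 0.32 SE, adjusted p = 1.43e-07). ITGB8, another partner of ITGAV, stood at -4.99, -6.16, -5.55, and -6.88 in TH, -3.21, -3.35, -4.30, and -4.57 in GC, -3.08, -3.43, -3.37, and -3.69 in CC, compared with -7.28, -6.07, -8.53, and -7.83 in oocytes. GC and CC lay above TH and oocytes without overlap, 1 array each of TH and oocytes was above background, and CC exceeded oocytes 16.4-fold (log2 difference 4.03 ± 0.49 SE, adjusted p = 2.34e-06). ITGB6 was below background on every somatic array and above it on 3 of 4 oocyte arrays, with a mean of -5.47.

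ITGB4 is the partner of ITGA6 in the hemidesmosome, where it binds laminin-332. Its gene value rose from GC through CC and TH to oocytes, with -3.01, -2.63, -2.07, and -2.75 in TH, -5.22, -5.01, -5.61, and -5.63 in GC, -4.51, -3.96, -4.12, and -3.89 in CC, compared with -0.90, -0.96, -0.66, and -0.62 in oocytes. No 2 of these groups overlapped, and oocytes exceeded GC 24-fold (log2 difference 4.58 ± 0.22 SE, adjusted p = 3.97e-11). The 2 probe sequences, each spotted in duplicate, lie in ITGB4 on chromosome 19 (chr19:56472338-56506801, UMD 3.1), and they are shown because they were called in opposite directions between TH and CC.
ITGB4 probe 1: tagctactatgagaggctgtcgtcatattt
ITGB4 probe 2: aagggcctggctttgttctgctatAATAAA

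ITGB4 probe 2, which ended in the hexamer, stood at 0.84, 0.32, 1.43, and 0.71 in TH, -5.02, -3.89, -3.57, and -4.13 in GC, -3.54, -3.23, -3.60, and -3.07 in CC, compared with 2.24, 2.86, 2.67, and 2.94 in oocytes. The values are those of 1 of its 2 spots, where TH and oocytes lay far above GC and CC, and TH exceeded CC by 4.13 and 4.18 on its 2 spots (adjusted p = 1.17e-07 and 7.22e-08). ITGB4 probe 1 stood at -7.58, -7.21, -5.57, and -6.20 in TH, -6.70, -6.18, -7.20, and -6.97 in GC, -5.48, -4.68, -4.52, and -5.02 in CC, compared with -4.05, -5.03, -4.01, and -4.12 in oocytes on 1 of its 2 spots, and with this sequence, above background on no TH array, CC exceeded TH at least 1.10-fold and 1.29-fold on the 2 spots (adjusted p = 1.21e-02 and 4.36e-03), the first with 2 of 4 CC arrays above background. Both sequences were called higher in oocytes than in GC, probe 2 by 6.83 and 6.99 and probe 1, above background on no GC array, at least 1.66-fold and 1.69-fold.

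**Figure D3:**
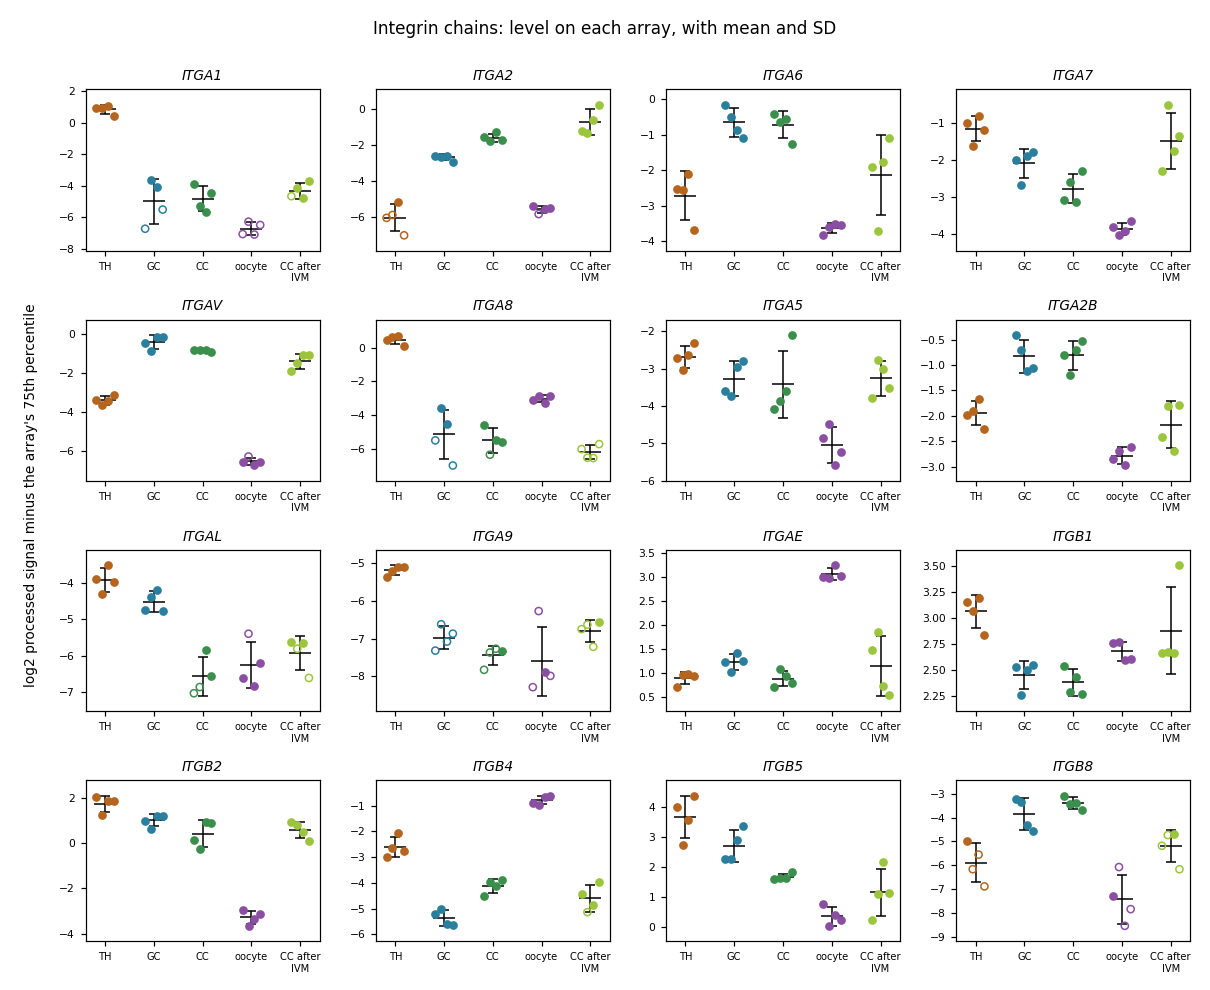
Levels of integrin chains by group (log2 of processed signal minus the 75th percentile of the array), 1 point per array with the mean and SD of 4 arrays as bars; open points were not well above background. ITGA1 and ITGA8 stand high in TH (means 0.85 and 0.45), ITGA2 in CC (-1.59), and ITGB4 in oocytes (-0.78).

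**Figure D4:**
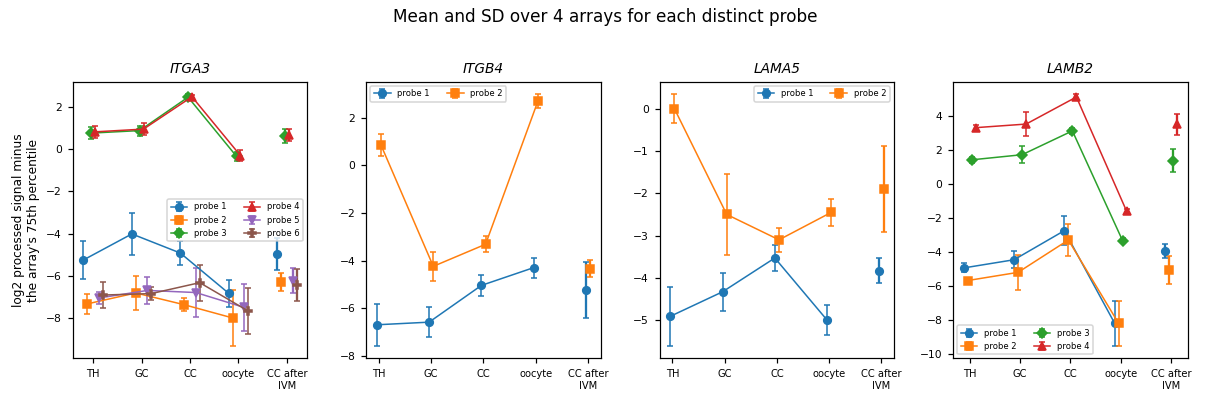
Mean level and SD over 4 arrays (log2 of processed signal minus the 75th percentile of the array) of each distinct probe of ITGA3, ITGB4, LAMA5, and LAMB2, numbered as in the text; lines only join the 4 cell types, and CC after IVM stands apart. Between TH and CC, ITGB4 and LAMA5 have 1 probe that falls and 1 that rises (that of ITGB4 from below background), ITGA3 has probes 3 and 4 far above its own other probes with a peak in CC, and all 4 LAMB2 probes peak in CC.

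Over the 7 pairwise comparisons, counting CC after IVM against CC, the 40 genes gave 162 calls, and in 99 of them every probe of the gene was called in the same direction. In 6 calls a probe was called the opposite way, and in 4 no probe was called in the direction of the gene. ITGB3BP, a centromere and coregulator protein that binds the beta 3 tail, had 2 probes higher in TH than in oocytes by 4.36 and 4.48 and 2 lower by 1.39 and 1.44. ITGBL1, a secreted protein with integrin-like repeats, was 34.3-fold higher in TH than in GC (log2 difference 5.10 ± 0.42 SE, adjusted p = 3.83e-07), at 1.14, -0.94, -0.15, and 1.24 in TH, -4.70, -5.36, -4.76, and -4.28 in GC, -4.56, -3.58, -4.33, and -4.75 in CC, compared with -3.77, -3.88, -3.38, and -4.10 in oocytes. TH lay above all other arrays on both probes, but between GC and oocytes 1 probe, above background on no GC array, was at least 4.42-fold higher in oocytes and the other was higher in GC by 2.03. The ITGB3BP gene level was -2.33, -2.43, -2.17, and -2.71 in TH, -2.17, -2.24, -2.47, and -2.59 in GC, -2.29, -2.61, -2.39, and -2.78 in CC, compared with -3.96, -4.08, -3.77, and -3.91 in oocytes. Its somatic groups overlapped and its oocyte arrays lay below them.

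Between TH and GC, 23 members passed: 15 were higher in TH, against 11.8% of all genes, and 8 higher in GC, against 14.5%. The median of all genes differed by -0.22 between TH and GC, 0.00 between TH and CC, and 0.15 between GC and CC. The 15 were 5 alpha chains (ITGA1, ITGA4, ITGA7, ITGA8, ITGA9), 4 beta chains (ITGB1, ITGB4, ITGB5, ITGB7), 5 laminin chains (LAMA2, LAMA3, LAMA4, LAMA5, LAMB1), and ITGBL1. The 8 were ITGA2, ITGA2B, ITGA6, ITGAV, ITGB6, ITGB8, ITGB1BP1, and ITGB1BP2, of which ITGB6 was below background on all 8 arrays. Between TH and CC, 17 were higher in TH (14.4% of all genes) and 7 in CC (17.4%); this comparison, which shares the TH arrays, added ITGAL and ITGB2 to the TH side and LAMB2 to the CC side, where ITGB6 and ITGB1BP2 did not pass. TH against GC gave 16 calls within slide 1 and 12 within slide 2, and TH against CC gave 18 and 20.

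Between GC and CC only 9 members passed, 5 higher in GC (4.61% of all genes) and 4 higher in CC (5.28%). ITGAL, ITGB6, ITGB7, LAMA2, and LAMB1 were higher in GC and ITGA2, ITGB4, LAMB2, and LAMC1 higher in CC. ITGB6 was above background on none of these 8 arrays and LAMA2 on 1, which left 3 of the 5 calls higher in GC. The split was 3 to 4 with the array median or the deposited table and 8 to 4 with the percentile over probes detected on all arrays. Of all genes called, 36.8%, 26.8%, and 57.0% were higher in GC with these scalings, in that order. The largest difference among the members was that of ITGAL, 4.12-fold higher in GC by the gene value (log2 difference 2.04 ± 0.31 SE, adjusted p = 6.78e-04). Its 4 probes, 2 of them above background on no array, differed by 0.42 to 3.49, and 2 were called. Within a slide, with 2 arrays per group, limma called 0 members on slide 1, where 7 had an unadjusted p under 0.05, and 2 on slide 2. Leaving out GC replicate 3 or CC replicate 1 left 5 calls in each case.

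Against the oocyte the balance was toward the somatic cells. TH was higher for 26 members (32.1% of all genes) and lower for 6 (32.6%), GC higher for 20 (37.9%) and lower for 8 (30.7%), and CC higher for 17 (32.0%) and lower for 8 (31.8%). LAMA3, ITGB4, and ITGAE were higher in oocytes in all 3 comparisons, which share the oocyte arrays, and so were ITGB6 and ITGA11, whose low levels turned the other way with normexp background correction. ITGAV, ITGA2B, ITGA3, ITGA5, ITGA6, ITGA7, ITGA10, ITGA1, ITGB2, ITGB5, ITGB8, LAMA1, LAMB2, and ITGB3BP were lower there in all 3. For ITGB3BP this holds for the gene value only, as in each comparison 2 spots were called lower in oocytes and 2 higher. ITGA10 had gene values near background, where the level of the weakest called signals differed between oocyte and somatic arrays. Not above background on 3 arrays of either group were ITGB8 for TH against oocyte, ITGA1, ITGAD, and LAMC3 for GC, and ITGA10 for CC. The median of all genes was higher in TH, GC, and CC than in oocytes by 0.42, 0.62, and 0.40, and the split of members depended on the scaling: with normexp background correction it was 35 to 4, 33 to 4, and 31 to 4, and with quantile normalization 23 to 9, 18 to 10, and 17 to 11. Of all genes called, the share higher in TH, GC, and CC was 72.7%, 75.2%, and 73.8% with normexp. With quantile normalization it was 46.6%, 48.2%, and 48.1%. Within slides 1 and 2, TH against oocyte gave 29 and 29 calls, GC against oocyte 17 and 28, and CC against oocyte 19 and 25.

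The genes around the members were taken from lists of known function. Of 18 other basement membrane genes, 11 were higher in TH than in GC and 1 lower (11.8% and 14.5% of all genes; median difference 1.24, against -0.22 over all genes), and 13 were higher in TH than in CC and 2 lower (14.4% and 17.4%; 3.07, against 0.00). They included NID1, which links laminin to collagen IV (above background on all 4 TH arrays and on none of GC or CC, adjusted p = 1.16e-08 for TH against CC), and COL4A1 (9.35-fold higher in TH than in CC, adjusted p = 3.22e-08). The perlecan gene HSPG2 was 3.54-fold higher in CC (adjusted p = 1.16e-02). Between GC and CC 8 were higher in GC, against 4.61% of all genes, and none in CC.

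Of 21 other integrin ligands, 8 were higher in TH than in GC and 3 lower, against 11.8% and 14.5% of all genes, with a median difference of 0.08, against -0.22. FN1, the ligand of ITGA5 and ITGB1, was 16.9-fold higher in TH (adjusted p = 1.61e-04), and VCAM1, the ligand of ITGA4, also 16.9-fold (adjusted p = 3.76e-05). NPNT, a ligand of ITGA8, was 21.9-fold higher in CC than in TH (adjusted p = 8.76e-09), and MFGE8, a ligand of ITGAV, 8.15-fold higher in CC (adjusted p = 5.20e-08). All 6 other laminin receptors were higher in TH than in oocytes (32.1% of all genes), among them BCAM, a receptor of LAMA5 (78.9-fold, adjusted p = 2.91e-13).

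Of 22 cytoplasmic proteins that act at integrin tails, 9 were higher in TH than in GC and 2 lower, against 11.8% and 14.5% of all genes (median difference 0.85, against -0.22). Against oocytes 13 were higher in TH and 3 lower, beside 32.1% and 32.6% of all genes (1.26, against 0.42). TLN1, which activates integrins, was 15.5-fold higher in TH than in oocytes (adjusted p = 3.03e-07), whereas FERMT2, a kindlin, was 3.79-fold higher in oocytes (adjusted p = 1.60e-08). None of the 22 passed limma's test between GC and CC, where 1 had an unadjusted p under 0.05.

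After 4 h of IVM, 21 members differed between CC after IVM and CC: 15 were higher, against 30.3% of all genes, and 6 lower, against 15.6%. The median of all genes was itself 0.37 higher after IVM. Of the 15 higher members, 11 were not above background on 3 arrays of either group, which left ITGA7, LAMC1, ITGB1BP1, and ITGB1BP2. All arrays after IVM were on their own slide, so that the slide and the maturation cannot be told apart.

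The 6 lower members were ITGB8, LAMB2, ITGA6, ITGA2B, LAMA1, and ITGA4. ITGB8 stood at -3.08, -3.43, -3.37, and -3.69 in CC and -5.18, -4.73, -4.70, and -6.16 after IVM. No array after IVM reached the lowest CC array, and the difference was 1.80 ± 0.33 (SE, adjusted p = 2.45e-03), although only 1 of 4 arrays after IVM was above background. LAMB2 stood at 0.00, 0.79, -0.22, and 0.11 in CC and -1.83, -1.60, -1.16, and -0.61 after IVM. The groups did not overlap, and LAMB2 was 2.77-fold lower after IVM (log2 difference 1.47 ± 0.31 SE, adjusted p = 5.85e-03).

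ITGA6 stood at -0.40, -0.64, -0.55, and -1.27 in CC and -1.92, -3.73, -1.77, and -1.08 after IVM. Replicate 4 after IVM lay within the CC range, so the groups overlapped, and the difference was 1.41 ± 0.50 (SE, adjusted p = 4.14e-02). ITGA2B stood at -0.80, -1.19, -0.71, and -0.53 in CC and -2.41, -1.80, -2.70, and -1.78 after IVM. All arrays after IVM were below all CC arrays, 2.57-fold on average (log2 difference 1.36 ± 0.26 SE, adjusted p = 3.49e-03). LAMA1 was lower by 1.12 ± 0.39 (SE, adjusted p = 4.03e-02) and ITGA4 was called lower (adjusted p = 2.41e-02), with no array above background after IVM and so no fold. Both bright ITGA3 probes were lower as well, by 1.84 and 1.82 (adjusted p = 3.52e-04 and 2.81e-04), while 1 ITGA3 probe that was below background on all 8 arrays was called higher (adjusted p = 1.29e-02).

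ITGB1BP2, or melusin, a muscle protein that binds the beta 1 tail, rose most among the members above background, with -5.14, -6.43, -5.84, and -5.57 in CC and -4.74, -4.19, -4.30, and -3.99 after IVM. The groups did not overlap, and the rise was 2.72-fold (log2 difference 1.44 ± 0.29 SE, adjusted p = 4.47e-03). All 4 spots were called higher, by 1.07 to 1.68, though 1 of the 2 ITGB1BP2 probe sequences was above background on no array. These levels lie near background, whose weakest called signals stood at -5.12 to -4.59 after IVM and at -5.73 to -5.26 in CC. ITGB1BP1, which competes with talin for the same tail, rose by 1.19 ± 0.18 (SE, adjusted p = 8.51e-04). ITGA7 and LAMC1 rose by 1.29 ± 0.37 (SE, adjusted p = 2.17e-02) and by 0.97 ± 0.34 (SE, adjusted p = 4.21e-02), each with overlapping groups. The 2 ITGA7 probes differed by 0.33 and 2.24, and 1 was called. With the brightest probe of each gene, neither ITGA7 nor LAMC1 was called. ITGA11 stood at -6.78, -7.44, -7.29, and -6.85 in CC and -5.41, -5.58, -6.19, and -5.92 after IVM. All arrays after IVM were above all CC arrays, but 1 of these 8 arrays was above background and no fold is given. ITGB3 (INTB3) rose by 1.09 ± 0.27 (SE, adjusted p = 1.09e-02), with -3.70, -3.97, -3.50, and -3.96 in CC and -3.20, -2.88, -2.66, and -2.03 after IVM. All its arrays after IVM lay above all CC arrays.

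Which members were called after IVM depended on how the arrays were scaled. With quantile normalization 4 were higher and 4 lower, with the percentile taken over probes detected on all arrays 8 and 7, and with normexp background correction 26 and 4. Of all genes called, 43.2%, 58.3%, and 83.3% were higher after IVM with these scalings, in that order. LAMB2, ITGA2B, ITGA7, ITGA11, ITGB1BP1, and ITGB1BP2 were called in all 6 scalings. The call count fell to 7 without CC replicate 1, to 12 without CC replicate 2, to 9 without CC replicate 3, and to 10 without CC after IVM replicate 4. Among the lists, 8 of the 22 cytoplasmic adhesion genes were lower after IVM (15.6% of all genes) and 1 higher (30.3%), with TLN1 3.15-fold lower (adjusted p = 8.74e-04). Of the 6 other laminin receptors, 4 were higher (30.3% of all genes) and 1, DAG1, was lower (15.6%), with SDC4 10.6-fold higher (adjusted p = 4.41e-05).

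**Figure D5:**
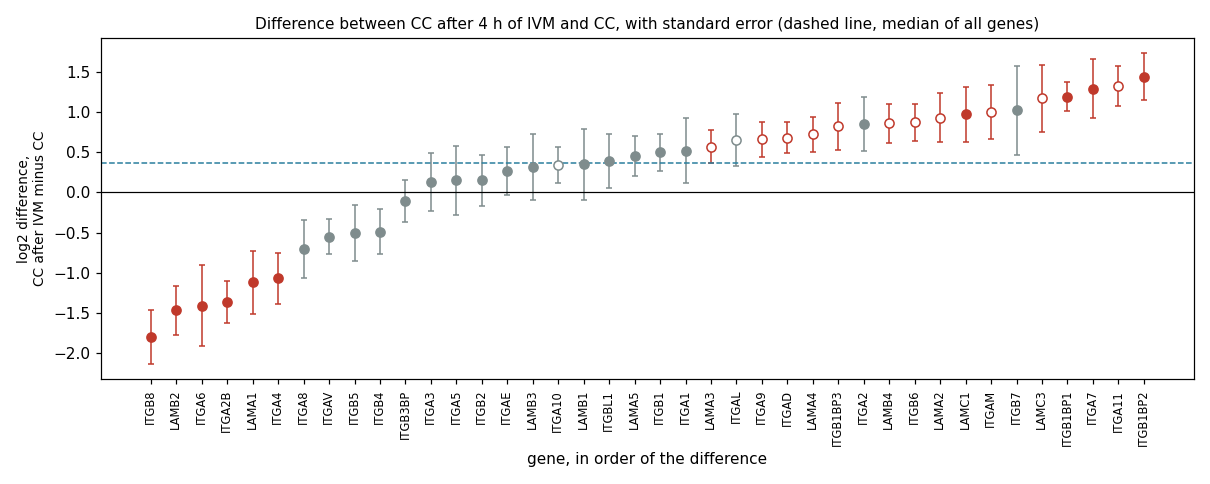
Difference of each member between CC after IVM and CC (log2, with its standard error; 4 arrays per group), with a dashed line at the 0.37 of the median of all genes; red marks an adjusted p under 0.05, and open points were not above background on 3 arrays of either group. ITGB8 (-1.80) and LAMB2 (-1.47) lie lowest and ITGB1BP2 (1.44) highest.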

How the data were processed

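Total RNA (200 ng per sample) of the 5 groups was hybridised by the authors to a custom bovine one-colour Agilent array. The deposited scanner files, made with Agilent Feature Extraction 10.7.3.1 per the file headers, held background-subtracted processed intensity values for 61325 non-control probes; coordinates follow UMD 3.1. The deposited value table was, per the authors' files, log2 of the median signal minus the median of its array, to within 5.0e-09.

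Log2 processed intensity was centred on the 75th percentile of each array, and the median over the spots of a gene was fitted with limma 3.58.1 in R 4.3.3: 16 arrays for the 4 cell types, and 8 arrays for CC after IVM against CC. P-values were adjusted over 22519 genes (threshold 0.05). The probe level was fitted likewise over all probes. The scripts were tested on simulated data. The precision is limited by 4 arrays per group.

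The member genes, the lists, and the markers were chosen with earlier results of these data known. A gene that the naming rule also found is not reported here. Of the 40 genes, 25 matched a RefSeq record and 24 of those had the same symbol. Values on every array were given for up to 9 alpha, 5 beta, and 8 laminin chains with the largest differences, the 6 largest called changes after IVM, ITGA2, ITGA6, ITGAV, ITGB1, and ITGB3, and members whose probes were called both ways. As alternatives, the scaling, background correction (normexp, offset 50), deposited table, summary of probes, dim-gene filter, samples in the fit, replicate block, slide, variance model, and each left-out array were tried. Replicate numbers were taken to pair TH with GC, whose same-number arrays all deviated together (r 0.196 to 0.443, other numbers -0.401 to 0.177), though same-number arrays also shared slides; no other 2 groups met that criterion.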

Additional observations from a re-analysis of the deposited data

Results flagged for a closer look

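Of 145 groups of 4 arrays, from the 29 genes given array by array in each of the 5 groups, 3 held an array that stood apart from the other 3 by Dixon's criterion, which chance meets in about 1 in 20 groups. ITGA2 stood at -2.94 in GC replicate 4, against -2.64 to -2.59 on the other GC arrays. In CC after IVM, LAMA3 stood at -7.19 on replicate 3, against -6.72 to -6.65, all below background. ITGB1 stood at 3.51 on replicate 4 of the same group, against 2.67 to 2.68. The cause was not tested for any of the 3.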

How the results depend on the processing

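Over 38 alternatives, 25 of 29 largest differences kept their direction and their call; LAMA5, ITGB1BP2, and ITGB1 lost the call within a slide, and ITGA11 between CC and oocyte reversed, to 0.82 with normexp and 0.06 with the deposited table. After IVM 5 of 21 members (LAMB2, ITGB1BP2, ITGA2B, ITGA11, and ITGB1BP1) kept their call in every alternative that tested them. The filter on dim genes left ITGA11 untested, and LAMB2 had no value of its own with the LAMC1 probes as named. Reversed there were ITGB8 (0.03) and ITGA4 (0.36) with normexp, ITGA9 (-0.02) and LAMA3 (-0.05) with quantile normalization, and ITGA9 with the brightest probe (-0.74). Calls after IVM fell from 21 to 8 with quantile normalization and to 10 with the filter on dim genes, which tested only 27 members; with the slide as a random block, chosen after seeing the data, 19 were called. Between GC and CC normexp gave 5 calls in place of 9, and slides 1 and 2 gave 0 and 2 by limma. TH against GC gave 12 within slide 2, and GC against oocyte 17 within slide 1. Each slide alone leaves 2 arrays per group. With the 6 LAMC1 probes kept as named, also chosen after seeing the data, 33 members passed the F-test. Except as named, the cause was not tested.

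With the replicate block, TH against GC gave 24 calls, ITGB2 being the gain, and CC after IVM gave 13, losing ITGA6, ITGA9, ITGAD, LAMA1, LAMA3, LAMA4, LAMB4, and LAMC1; the numbers did not pair CC with CC after IVM (r -0.221 to -0.026). 

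Leaving out 1 array at a time gave 34 to 37 members by the F-test, 20 to 24 for TH against GC, 23 to 27 for TH against CC, 30 to 36 for TH against oocyte, 5 to 11 for GC against CC, 24 to 30 for GC against oocyte, 24 to 29 for CC against oocyte, and 7 to 20 after IVM. The lowest counts between GC and CC came without GC replicate 3 or CC replicate 1 (5 each), and after IVM without CC replicate 1 (7), CC replicate 3 (9), CC after IVM replicate 4 (10), and CC replicate 2 (12).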
